A study of Caenorhabditis elegans with 8 samples.

Results

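The neuropeptide-like protein (nlp) genes of Caenorhabditis elegans that lie outside the epidermal antimicrobial cluster were followed in RNA of whole worms. Members were all genes with an nlp symbol except nlp-24 to nlp-34, together with pdf-1 and ntc-1, which gave 62 of the 46739 genes in the count files. The rule reads gene symbols only, and it was set with earlier results of these data known. All 8 libraries came from 1 strain, whose genotype is labelled neuronal DAF-15 AID, for an auxin-inducible degron that lets an auxin send the tagged protein to the proteasome. DAF-15, known as Raptor in other animals, belongs to the nutrient-sensing kinase complex TORC1. From the L4 larval stage, 4 samples received ethanol (the control) and 4 received the auxin analog 5-Ph-IAA for 24 h, and worms were taken on day 1 of adulthood. The comparison asks which transcripts differ when the trigger is given. Both groups carry the degron, and no library came from worms without it, so an effect of 5-Ph-IAA itself cannot be told apart from one of degrading DAF-15. The sources used here give neither the promoter that restricts the system to neurons nor the dose of 5-Ph-IAA.

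Neuropeptides are made as longer precursors in the secretory pathway, cut at basic residues by proprotein convertases, trimmed by carboxypeptidases and often amidated at their C-terminus. They are stored in dense core vesicles, released by exocytosis that depends on UNC-31/CAPS, and act mostly on G protein-coupled receptors, often far from the site of release. In C. elegans the nlp class is a catch-all of precursors that are neither insulin-like nor FMRFamide-like, and most of its members are expressed in small sets of neurons, with some also made in the gut, epidermis or gonad. In whole-worm RNA a lower level can come from a smaller share of a cell type in the RNA or from less of the transcript per cell, which cannot be told apart.

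Between 7354710 and 10893322 reads per library were counted in genes, and members took 0.0535% of them. Levels are given in CPM, read counts scaled to a common library size with TMM factors, a trimmed mean of gene-wise ratios. The daf-15 transcript had means of 121.1 ± 6.89 CPM in the control group and 119.1 ± 6.20 CPM in the treated group (SD, n = 4 each), which does not check the loss of the protein. All 19 genes of a list of neuron markers had counts, and their summed level ran from 447.3 to 459.8 CPM with ethanol and from 419.8 to 459.6 CPM with 5-Ph-IAA. Most of that sum came from snb-1 (163.7 to 183.4 CPM over the 8 libraries), the synaptobrevin of synaptic vesicles, and tdc-1 (162.5 to 196.5 CPM), a tyrosine decarboxylase that is also made in the gonadal sheath.

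No neuropeptide-like gene outside the epidermal cluster passed the threshold of an adjusted p under 0.05. Of the 62 members, 43 passed the filter on low counts and were tested in a fit over 12021 genes, and 0 of them were called by edgeR's quasi-likelihood test, against 0.0998% of all tested genes. The filter asks for enough counts in 4 libraries whatever their group. At an unadjusted p under 0.05 there were 3 members, or 6.98%, against 4.41% of all tested genes, and all 3 were lower with 5-Ph-IAA, a direction in which 2% of all tested genes had such a p. With the replicate number as a block again 0 of 43 were called, against 0.732%, and 4 members, or 9.30%, had an unadjusted p under 0.05, against 6.91%, all 4 of them lower, against 3.49% in that direction. DESeq2 and limma-voom called 0 members as well. DESeq2 was run without the filter on low counts. Of the 61 members with a p in it, 4, or 6.56%, were under 0.05 unadjusted, against 1.95% of all such genes, and with the replicate block 2, or 3.28%, against 1.15%. All such genes numbered 23361 without the block, against 12021 past the filter, while 43 of the 61 members had passed it. Genes with low counts thus weigh more in the shares over all genes, which are not like for like with those of the members. With limma-voom 3 of 43, or 6.98%, were under 0.05 unadjusted, against 4.38%. The smallest adjusted p of any member was 0.674 without the block and 0.130 with it, both for nlp-49.

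The level of the members was concentrated in a few genes. The highest per kilobase of exon was nlp-40, whose peptide is released from the intestine and sets off the expulsion step of defecation through the receptor AEX-2. Its mean level was 299.5 ± 14.5 CPM per kilobase with ethanol and 277.6 ± 6.92 CPM per kilobase with 5-Ph-IAA (SD, n = 4 each). On the scale of CPM it supplied 38.3% of the summed level of all 62 members, and nlp-36 supplied 9.12%. nlp-36 came next per length, at 139.9 ± 14.9 and 138.7 ± 12.1 CPM per kilobase, and over all libraries the mean of nlp-40 was 2.07 times as high. After nlp-49 (50.1 ± 5.65 and 39.7 ± 3.64 CPM per kilobase) stood nlp-20 (31.1 ± 4.18 and 28.9 ± 2.11) and pdf-1 (25.7 ± 3.00 and 24.7 ± 2.51), whose ethanol means lay closer than the sum of their SDs. The following 5 in the order, nlp-47, nlp-18, nlp-59, nlp-21 and nlp-13, had ethanol means between 14.4 and 20.3 CPM per kilobase, and each differed from the next in this order by less than the sum of their SDs. The median member had a mean of 5.19 CPM per kilobase.

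**Figure D1:**
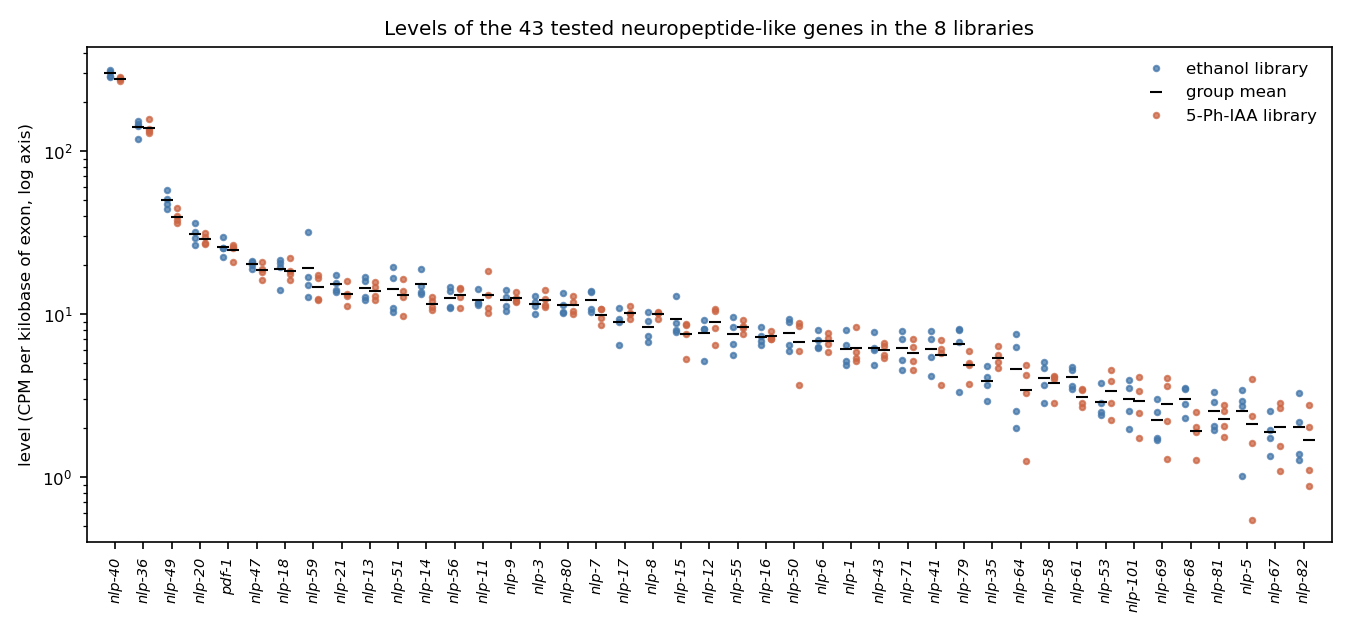
Level of each of the 43 tested members (CPM per kilobase of exon, log axis) in the 4 ethanol and 4 5-Ph-IAA libraries, ordered by mean level, with black bars for the group means. Levels fall from 288.6 CPM per kilobase for nlp-40 to 1.87 for nlp-82, and the points of both groups lie among each other for nearly every gene.

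The members with the smallest unadjusted p were nlp-49 and nlp-14. The gene nlp-49 (WBGene00019160, X: 5904653 to 5905345, plus strand) codes for peptides that act on the receptor SEB-3 in arousal. Its level in ethanol replicates 1 to 4 was 28.5, 34.5, 30.6 and 26.6 CPM, and in 5-Ph-IAA replicates 1 to 4 it was 22.8, 26.7, 21.6 and 24.1 CPM. The 5-Ph-IAA libraries lay lower in 4 of 4 numbered pairs, while the highest of them just reached into the ethanol range. The means of 30.04 ± 3.39 and 23.8 ± 2.19 CPM (SD, n = 4 each) gave a difference of -0.33 on the log2 scale (SE 0.105, unadjusted p = 0.00398, edgeR adjusted p = 0.674), with an unadjusted 95% interval of the fold from 0.683 to 0.922. The difference therefore did not pass once all tested genes were counted.

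The gene nlp-14 (WBGene00003752, X: 8917423 to 8919423, minus strand) codes for orcokinin-like peptides, which take part in stress-induced sleep. Its levels were 14.1, 15.2, 19.4 and 13.6 CPM in ethanol replicates 1 to 4 and 11.3, 10.8, 12.98 and 12.3 CPM in 5-Ph-IAA replicates 1 to 4. Every 5-Ph-IAA library lay below every ethanol library, and ethanol replicate 3 was the highest of all. Its log2 fold change was -0.39 (SE 0.137, unadjusted p = 0.00892, edgeR adjusted p = 0.932), and -0.27 without ethanol replicate 3.

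The intestinal gene nlp-40 (WBGene00022276, I: 11495 to 16837, plus strand) differed by less. Its levels were 207.2, 225.8, 219.0 and 203.4 CPM in ethanol replicates 1 to 4, against 203.3, 199.7, 191.5 and 198.5 CPM in 5-Ph-IAA replicates 1 to 4. The groups did not overlap, though the margin between ethanol replicate 4 and 5-Ph-IAA replicate 1 was narrow. The fold of 0.927 (unadjusted 95% interval 0.863 to 0.997, log2 -0.11, SE 0.051, unadjusted p = 0.0422, edgeR adjusted p = 0.999) was the most precise of all members, with 14225 counts behind it. Among the 43 tested members, nlp-14 and nlp-40 were those with no overlap between the groups, or 4.65%, against 2.65% of all tested genes, and for the lower direction alone 4.65% against 1.11%.

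Markers of the intestine lay on both sides of 0. Their summed level, most of it from act-5 and vha-6, was lower with 5-Ph-IAA by about as much as nlp-40. This was not particular to nlp-40, since the summed level of the 60 members without nlp-40 and nlp-36 had a ratio of 0.924. Of 8 intestine markers, 8 were tested. A log2 fold change below 0 was found for 5, or 62.5%, against 50.3% of all tested genes, and 3 lay above it (from -0.44 to 0.24). limma-voom called 0, and so did DESeq2 with or without the block. In edgeR 0 were called without the block and 1 with it. Without it 2 of the 8 had an unadjusted p under 0.05, both lower, a higher share than the 4.41% of all tested genes in either direction. The called gene was vha-6, an apical subunit of the vacuolar ATPase, at 283.7 ± 18.1 and 249.5 ± 19.7 CPM (SD, n = 4 each, log2 -0.19 with the block, SE 0.045, edgeR adjusted p = 0.0236, and 0.674 without the block). In the blocked fit 0 markers were called when pair 1, 3 or 4 was left out, and 1 when pair 2 was. The other gene was elt-7, a GATA factor of the intestine, at 5.03 ± 0.538 and 3.68 ± 0.351 CPM with no overlap between the groups (log2 -0.44, SE 0.206, edgeR adjusted p = 0.999). The summed level of the 8 markers ran from 1149 to 1343 CPM with ethanol and from 1035 to 1252 CPM with 5-Ph-IAA, a ratio of the means of 0.926 with overlapping groups, and none was at 0. Most of that sum came from vha-6 and from act-5, at 616.8 ± 60.4 and 560.8 ± 49.7 CPM (SD, n = 4 each, log2 -0.14, SE 0.070, edgeR adjusted p = 0.999). The ratio thus mainly reflects these genes and not the list as a whole. The part of intestine content in the level of nlp-40 was not tested.

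The gene nlp-59 (WBGene00008522, V: 14971436 to 14972419, plus strand) entered the named set through the block alone. Its levels were 10.2, 11.4, 21.6 and 8.68 CPM in ethanol replicates 1 to 4 and 11.7, 8.39, 11.3 and 8.23 CPM in 5-Ph-IAA replicates 1 to 4. The groups overlapped, and ethanol replicate 3 stood well above the other 7 libraries. Its log2 fold change was -0.37 with an SE of 0.284 (unadjusted p = 0.223, edgeR adjusted p = 0.999). The unadjusted p was 0.0330 with the block, and the fold change shrank to -0.02 without ethanol replicate 3.

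**Figure D2:**
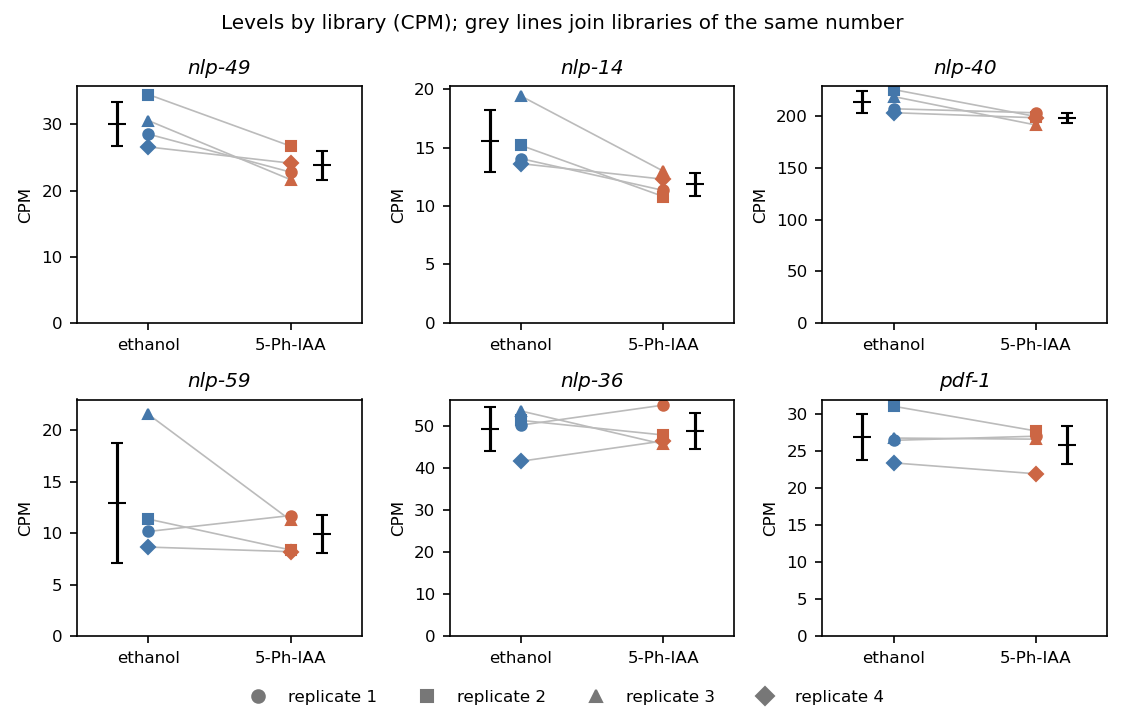
Level (CPM, axes from 0) of nlp-49, nlp-14, nlp-40, nlp-59, nlp-36 and pdf-1 in each library, with symbols for the replicate number, grey lines between libraries of the same number and black bars for mean and SD (n = 4). For nlp-49, nlp-14 and nlp-40 all 4 lines go down, for nlp-59 ethanol replicate 3 at 21.6 CPM stands apart, and for nlp-36 and pdf-1 the groups share their range.

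Neurons are a known source of nlp-49 and nlp-14, and the neuron markers did not pass either. Of 19 markers 15 were tested and 0 were called with or without the block (edgeR), and 0 in DESeq2 and limma-voom. At an unadjusted p under 0.05 there was 1 of the 15 without the block, against 4.41% of all tested genes. With the block there were 2 of the 15, against 6.91%, and both shares were higher than those over all tested genes. The median log2 fold change of the 15 was -0.04, and 10, or 66.7%, lay below 0, against 50.3% of all tested genes. Above 0 lay 5, and the range ran from -0.41 to 0.18. For the summed level of all 19 markers the ratio of the group means was 0.9855. Among the markers below 0, rab-3, a small GTPase of synaptic vesicles, stood at 10.1 ± 2.18 and 7.51 ± 1.52 CPM (log2 -0.41, SE 0.180, edgeR adjusted p = 0.999). Also below 0, ric-4, the SNAP-25 of the synapse, stood at 17.7 ± 2.28 and 14.8 ± 2.14 CPM (log2 -0.25, SE 0.131, edgeR adjusted p = 0.999). The part of neuron content in the levels of nlp-49 and nlp-14 was not tested.

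Several well-measured members had narrow intervals around no difference. The gene nlp-36 (WBGene00007185, III: 9488731 to 9489186, plus strand) stood at 50.3, 51.4, 53.6 and 41.7 CPM with ethanol and at 55.0, 47.9, 45.7 and 46.5 CPM with 5-Ph-IAA, in the order of replicates. The groups overlapped throughout, and the unadjusted 95% interval of its fold ran from 0.880 to 1.13 (log2 -0.006, SE 0.086, edgeR adjusted p = 0.999). Of its 352 exon bases 11 overlap exons of dars-1, an aminoacyl-tRNA synthetase gene on the other strand. Since the strand setting of the counting is not given, a share of its reads may belong to that gene, which was at 340.7 CPM and differed by -0.02 on the log2 scale (SE 0.049, edgeR adjusted p = 0.999).

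The gene pdf-1 (WBGene00020317, III: 6909590 to 6912481, minus strand) codes for a pigment-dispersing factor peptide that sustains roaming and, in males, the search for mates. It stood at 26.5, 31.1, 26.8 and 23.4 CPM with ethanol and at 27.01, 27.7, 26.6 and 21.9 CPM with 5-Ph-IAA. In both groups replicate 4 was the lowest, and the interval of the fold ran from 0.823 to 1.120 (log2 -0.06, SE 0.108, edgeR adjusted p = 0.999). The gene nlp-47, which codes for a peptide related to gonadotropin-releasing and adipokinetic hormones, had means of 12.1 ± 0.652 and 11.1 ± 1.10 CPM (log2 -0.13, SE 0.134, edgeR adjusted p = 0.999). The other named members were nlp-20, nlp-18, nlp-21 and nlp-13, whose log2 fold changes lay between -0.19 (nlp-21) and -0.03 (nlp-18), each with an edgeR adjusted p of 0.999. Of these nlp-21 was lower in 4 of 4 numbered pairs, and its groups overlapped. Of the 789 exon bases of nlp-21, 46 overlap subs-4, a gene on the other strand at 0.278 CPM.

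The gene ntc-1 (WBGene00044568, X: 4866098 to 4866690, plus strand) codes for nematocin, the worm relative of vasopressin and oxytocin, which acts in taste learning and male mating. With 49 counts over 8 libraries it did not pass the filter. Its levels were 0.827, 0.920, 1.27 and 0.653 CPM with ethanol and 0.607, 1.02, 0.524 and 0 CPM with 5-Ph-IAA. The groups overlapped, and 0 counts in 5-Ph-IAA replicate 4 allow up to 0.327 CPM (3 counts, counting error only). Of the 439 exon bases of ntc-1, 10 overlap tsp-14, a gene on the other strand at 4.70 CPM.

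Some further members are named for their known roles, after their values were seen, and none of them passed. For nlp-3, which promotes egg laying from the HSN neurons, the means were 5.98 ± 0.648 and 6.31 ± 0.696 CPM (SD, n = 4 each, log2 0.07, SE 0.180, edgeR adjusted p = 0.999). For nlp-1, a peptide gene of the AWC olfactory neurons, they were 4.34 ± 0.998 and 4.38 ± 1.04 CPM (log2 0.02, SE 0.230). For nlp-12, the cholecystokinin-like precursor of the stretch-sensing neuron DVA, they were 3.36 ± 0.750 and 3.95 ± 0.871 CPM (log2 0.21, SE 0.245). For nlp-8, which like nlp-14 acts in stress-induced sleep, they were 7.01 ± 1.36 and 8.39 ± 0.335 CPM (log2 0.26, SE 0.170, edgeR adjusted p = 0.999). The values of nlp-8 and nlp-14 thus stood on opposite sides of 0, and neither passed.

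Among the 43 tested members 28 had a log2 fold change below 0, or 65.1%, against 50.3% of all tested genes, and 15 were above it. Their median was -0.06, against -0.0009 over all tested genes, and with 1 library left out it moved to -0.13 without ethanol replicate 4, to -0.0193 without ethanol replicate 1 and to -0.0266 without ethanol replicate 3. The range ran from -0.63 for nlp-68 to 0.47 for nlp-35, a pair chosen for its extreme values, and for both genes the groups overlapped. The gene nlp-68 stood at 1.93, 2.42, 2.41 and 1.59 CPM with ethanol and at 1.72, 1.40, 1.31 and 0.878 CPM with 5-Ph-IAA (edgeR adjusted p = 0.999). The gene nlp-35 stood at 1.79, 2.07, 1.27 and 1.59 CPM with ethanol and at 2.02, 2.42, 2.75 and 2.19 CPM with 5-Ph-IAA (edgeR adjusted p = 0.999). Lower in all 4 numbered pairs were 7 of the 43, or 16.3%, against 7.02% of all tested genes, and 1, nlp-35, was higher in all 4, or 2.33%, against 7.17%. Of the exon bases of nlp-35, 15.7% overlap a gene on the other strand, C33A12.19. That gene was at 5.21 CPM and differed by -0.44 on the log2 scale (SE 0.225, edgeR adjusted p = 0.999).

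The precision differed between members. The unadjusted 95% interval of the log2 fold change had a half-width of 0.105 for nlp-40, a median of 0.457 over the members and a largest value of 0.984. For 19 of the 43 the whole interval lay within 1.5-fold either way, and for 34 within 2-fold. For the remaining 9, among them nlp-59 with its high ethanol replicate 3, the interval reached beyond 2-fold.

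**Figure D3:**
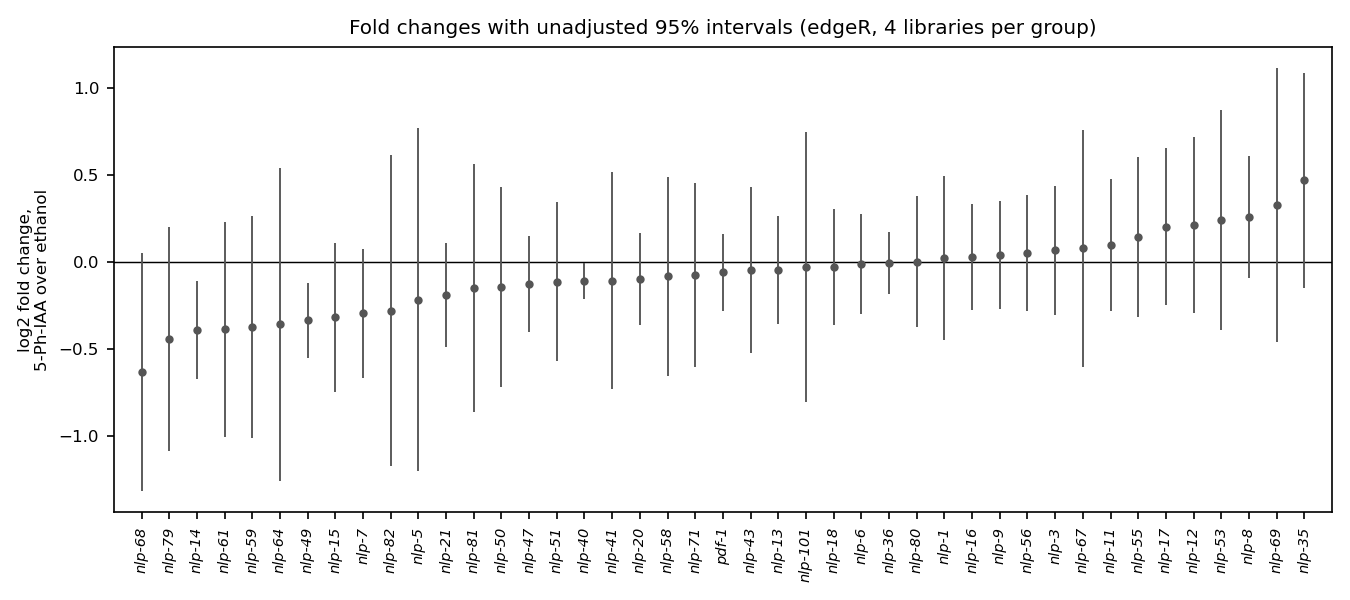
Log2 fold change of each tested member, 5-Ph-IAA over ethanol, with its unadjusted 95% interval (edgeR, 4 libraries per group), ordered by size. For 3 members, nlp-14, nlp-49 and nlp-40, the interval does not reach 0, and none of the 43 passed after adjustment over 12021 genes.

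The summed level of the 62 members was 553.8, 582.4, 581.9 and 509.6 CPM in ethanol replicates 1 to 4 and 527.2, 527.1, 510.5 and 509.7 CPM in 5-Ph-IAA replicates 1 to 4. The groups overlapped because ethanol replicate 4 was the lowest of all 8, while the other 3 ethanol libraries lay above every 5-Ph-IAA library. The means were 556.9 ± 34.3 and 518.6 ± 9.88 CPM (SD, n = 4 each), a ratio of 0.931. Without nlp-40 and nlp-36 the ratio was 0.924, with the same library lowest. Of the 43 tested members, 12 had their highest value in ethanol replicate 2 and 9 in ethanol replicate 3, while 11 had their lowest in 5-Ph-IAA replicate 4 and 7 each in ethanol replicate 4 and 5-Ph-IAA replicate 3.

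**Figure D4:**
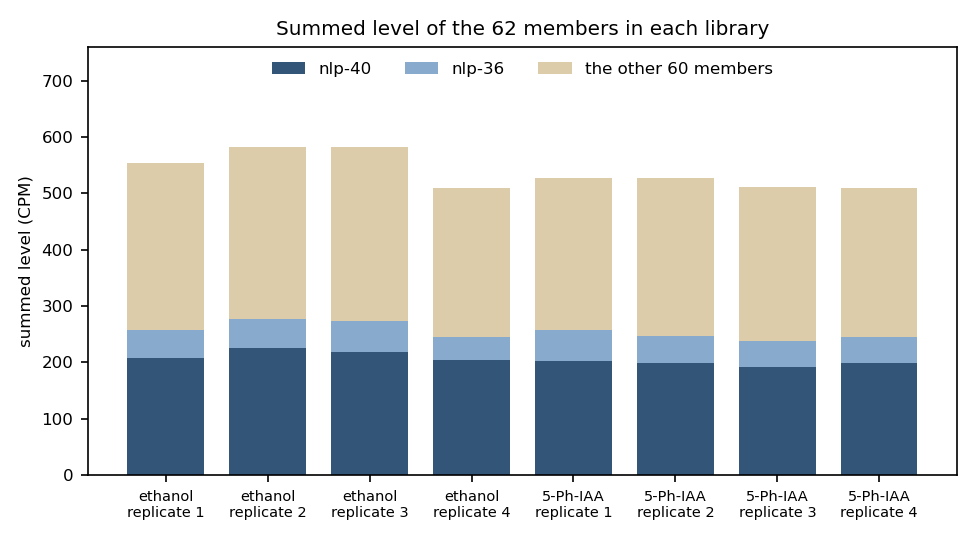
Summed level (CPM) of the 62 members in each library, split into nlp-40, nlp-36 and the other 60. Totals run from 509.6 to 582.4 CPM, and nlp-40 holds between 191.5 and 225.8 CPM of them.

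The machinery that makes, releases and receives the peptides showed no called gene either, in edgeR with or without the block or in DESeq2 and limma-voom. All 11 listed enzymes of precursor cleavage and amidation were tested (6 above 0 and 5 below, median log2 fold change 0.01). At an unadjusted p under 0.05 there were 2 of the 11, a higher share than the 4.41% of all tested genes. They include pgal-1, an enzyme of peptide amidation, at 37.1 ± 2.28 and 32.3 ± 3.01 CPM (SD, n = 4 each, log2 -0.20, SE 0.092, edgeR adjusted p = 0.999), and aex-5, a proprotein convertase, at 13.8 ± 2.02 and 11.2 ± 1.17 CPM (log2 -0.29, SE 0.141, edgeR adjusted p = 0.999). Of the 16 genes of dense core vesicle biogenesis and release, 16 were tested (9 above 0, median 0.004). An unadjusted p under 0.05 was found for 2 of the 16, also a higher share than the 4.41% of all tested genes. Within that list tbc-8, a Rab GTPase-activating protein of vesicle maturation, was at 7.55 ± 1.62 and 4.88 ± 0.913 CPM (log2 -0.62, SE 0.202, edgeR adjusted p = 0.736, or 0.160 in the blocked fit). The gene cccp-1, for a coiled-coil protein of the same process, lay on the other side, at 6.46 ± 1.02 and 8.51 ± 0.856 CPM (log2 0.40, SE 0.171, edgeR adjusted p = 0.999).

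Receptors were scarce in whole-worm RNA. Of 99 listed receptor genes in the files 49 were tested, of which 21 lay above 0 and 28 below, with a median of -0.04. An unadjusted p under 0.05 was found for 1 of the 49, a lower share than the 4.41% of all tested genes. It was dmsr-7, at 1.43 ± 0.309 and 0.814 ± 0.373 CPM (log2 -0.85, SE 0.411, edgeR adjusted p = 0.999). The receptors of the ligands described above are named here for that reason, after their values were seen. The NLP-40 receptor gene aex-2, at 1.122 ± 0.297 and 1.42 ± 0.631 CPM, did not pass the filter. The NLP-49 receptor gene seb-3 had a log2 fold change of 0.04 (SE 0.332) and the PDF receptor gene pdfr-1 of 0.05 (SE 0.141), both with an edgeR adjusted p of 0.999. Of the neprilysins, membrane peptidases that can degrade released peptides, 10 of 23 in the files were tested, with a median of -0.03 and 0 at an unadjusted p under 0.05.

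Other peptide families are given beside the members for comparison, and no difference between the families was tested. Of the 30 tested FMRFamide-like genes 0 were called by edgeR with or without the block, DESeq2 or limma-voom. In edgeR 4 of the 30 had an unadjusted p under 0.05, a higher share than the 4.41% of all tested genes. With the block it was 5 of the 30, again a higher share than the 6.91% of all tested genes. Below 0 lay 24, or 80.0%, against 50.3% of all tested genes, and the median was -0.14. Their summed level had a mean of 280.1 ± 34.5 CPM in the ethanol group and 249.3 ± 9.38 CPM in the other (SD, n = 4 each), and ethanol replicate 4 was again the lowest library, at 229.5 CPM. Of the 10 tested genes of the epidermal cluster nlp-24 to nlp-34, 2 were called without the block and 3 with it, all higher. Among the 43 tested members the largest positive fold was 1.39 (nlp-35), while nlp-34 of the epidermal cluster went from 3.48 ± 1.05 to 10.7 ± 2.80 CPM (log2 1.65, SE 0.225, edgeR adjusted p = 0.00158).

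**Figure D5:**
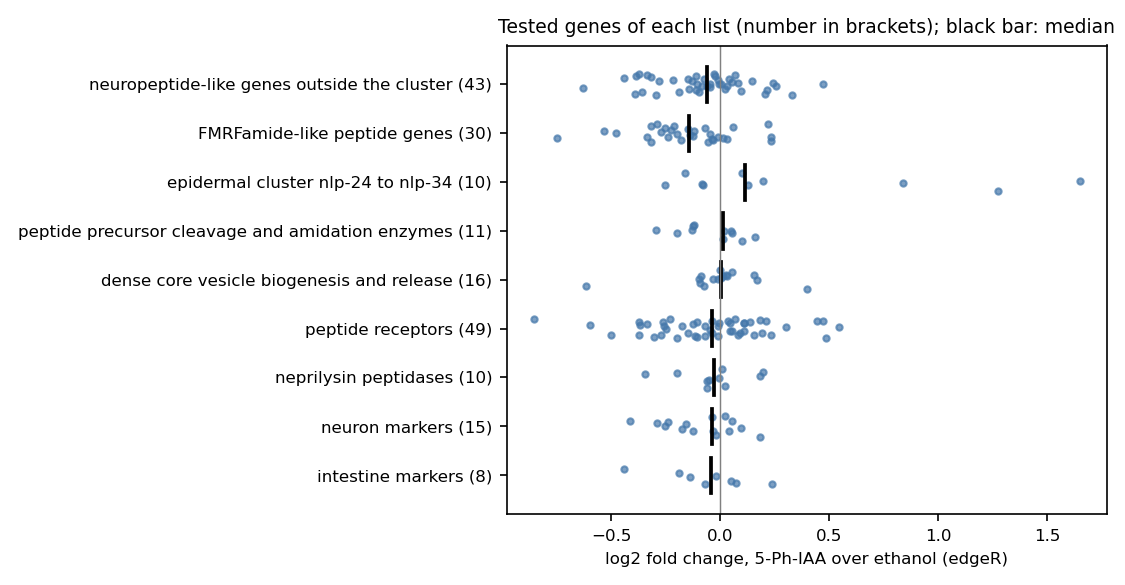
Log2 fold changes (5-Ph-IAA over ethanol) of the tested genes in each list, with the number of genes in brackets and a black bar for the median; vertical scatter only separates the points. Members spread from -0.63 to 0.47 around a median of -0.06, and the points above 0.8 belong to the epidermal cluster. The lowest point is the receptor gene dmsr-7, at -0.85.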

How the data were processed

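Whole-worm RNA-seq libraries, 4 with ethanol and 4 with 5-Ph-IAA, were used as deposited: whole-number read counts per WormBase gene, 1 file per library. The submitters' processing notes name FastQC 0.11.5, TopHat2, HTSeq and DESeq2 without roles. The sources used here give no build, annotation or strand setting for the counting. Of each file's counts, 47.7% to 48.1% stood in the closing line for reads in no gene and 4.14% to 4.55% in that for reads aligned more than once. The 5 closing lines, which name no gene, were left out.

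Symbols, exon lengths and 1-based coordinates come from Ensembl release 115 (WBcel235), which held 46484 of 46739 identifiers. Genes passing filterByExpr were tested with edgeR 4.0.16 in R 4.3.3 (quasi-likelihood, robust, TMM, two-sided, no block), with Benjamini-Hochberg adjustment over 12021 genes. SEs are the log2 fold change over the square root of F. CPM per kilobase divides by union exon length. DESeq2 1.42.0 and limma-voom (limma 3.58.1) were alternatives, as were other scalings, filters and leaving out libraries. The code was tested on simulated counts.

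Same-numbered libraries deviated together (correlations 0.1002 to 0.147, the lowest barely past the bar of 0.1). On this evidence of the data, and not of the labels, the numbers were taken to pair them in the blocked fits. The main fit has no block, so its SEs and intervals do not use this pairing. The labels do not say whether replicates were separate cultures, and p-values then reflect only the scatter of these samples, part of which may be technical. Every pair of replicates within a group differed by more than sampling noise (chi-square over degrees of freedom 2.52 to 9.03). Members and lists were chosen with earlier results of these data known. Genes named are members with an unadjusted p under 0.05 with or without the block, the 10 highest per kilobase, pdf-1 and ntc-1, and up to 3 genes per list with an unadjusted p under 0.05. Exceptions are marked.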

Additional observations from a re-analysis of the deposited data

How the results depend on the processing

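Under all 20 alternatives 0 members were called, and the lowest adjusted p of any member was 0.0741 (nlp-49, with the replicate block and without replicate 4). Over all genes the 12 calls became 88 with the replicate block, 22 with DESeq2, 21 with DESeq2 and the block, and 62 with no filter, and ran from 6 to 19 when 1 library was left out and were 82, 51, 78 and 92 when pairs 1 to 4 were left out of the blocked fit. The replicate block brought 1 intestine marker past the threshold (edgeR, not DESeq2) and changed no call of a member or of another list outside the epidermal cluster. Leaving out a library or pair moved the calls to between 0 and 1 for the intestine markers, the body wall muscle markers and the FMRFamide-like genes, and to between 1 and 4 for the epidermal cluster. The median log2 fold change of the members lay between -0.126 (without ethanol replicate 4) and -0.0193 (without ethanol replicate 1), and that of nlp-59 between -0.535 and -0.0198 (without ethanol replicate 3). Of the 11 named members that were tested, 4 changed sign under at least 1 alternative. For nlp-36 the log2 fold change was 0.0103 with limma-voom, ran from -0.0828 to 0.0351 with 1 library left out, and was positive without pair 2 (0.0248) and pair 3 (0.0617) in the blocked fit. With 1 library left out the range was -0.126 to 0.0193 for pdf-1, -0.159 to 0.0508 for nlp-18 and -0.125 to 0.0294 for nlp-13. In the blocked fit nlp-18 stood at 0.0925 without pair 1 and 0.0186 without pair 3, and nlp-13 ran from -0.154 to 0.0715 with 1 pair left out. The cause of these changes was not tested. Depth limits the 19 members that were not tested, each with at most 74 counts over 8 libraries.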

Other observations

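Members left out by the filter on low counts had at most 74 counts over the 8 libraries, and some were near the limit of detection. For nlp-22, a peptide gene of the RIA neurons that acts in the quiescence of larval moults, 0 counts were found in all 8 libraries, which allows up to 0.0433 CPM over the 69209546 reads in genes (3 counts, counting error only). It lies on chromosome X in a stretch of 7167 bases (X: 2337600 to 2344766) that holds nlp-45, nlp-22, nlp-23 and nlp-2 and 1 other protein-coding gene, T01B6.1. Together the 4 members had 87 counts over the 8 libraries. nlp-2, which like nlp-22 codes for RPamide peptides, had levels between 0.405 and 0.917 CPM in every library, while nlp-23 had 0 counts in 5 of the 8. Of all members 20 of 62, or 32.3%, lie on X, against 13.5% of the 19664 protein-coding genes in the files. The choice of these genes came after their values were known.

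Fitted with no filter, 18 of the 19 entered the test and 0 were called (edgeR, lowest adjusted p 0.792). The lowest unadjusted p was that of nlp-4, at 0.689, 0.230, 1.01 and 0.466 CPM in ethanol replicates 1 to 4 and 0, 0.381, 0.131 and 0.1097 CPM in 5-Ph-IAA replicates 1 to 4 (unadjusted p = 0.0302, edgeR adjusted p = 0.792). For nlp-63 the groups did not overlap, at 0.560 to 0.888 CPM with ethanol and 0.101 to 0.439 CPM with 5-Ph-IAA, on 31 counts in all (unadjusted p = 0.0507, edgeR adjusted p = 0.792). Of the 19, 13 had the lower mean with 5-Ph-IAA, 5 had the higher one and 1 was at 0 in both. Matching shares over all genes left out by the filter were not computed. Neither this count nor the lack of overlap for nlp-63 is therefore read as a result.

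In the remaining marker lists, with edgeR and no block, 0 genes were called and 0 had an unadjusted p under 0.05. Tested were 5 of 8 genes in the files for epidermis, 6 of 7 for body wall muscle and 5 of 7 for pharynx. Tested too were 9 of 9 for germline and oocytes, 1 of 7 for sperm and 4 of 4 for somatic gonad. With the block 0 were called, and 1 had an unadjusted p under 0.05, the epidermis marker col-19 (log2 -0.13, SE 0.048, edgeR unadjusted p = 0.0123, adjusted p = 0.462). The pharynx markers had a median log2 fold change of 0.26, with 4 above 0 and 1 below. DESeq2 and limma-voom called 0 genes of these lists too.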
